A study of Mus musculus with 10 samples.

Results

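The genes described here are 9 genes of the melanoblast, the neural crest cell that becomes the pigment cell, together with the receptor for endothelin-3 and its ligand. They were taken by name out of 49671 genes listed, a choice made with earlier results of these data known, and 7 of the 9 had enough reads to enter a test of 14528 genes. They are the transcription factor gene Mitf, the pigment and melanosome genes Dct, Pmel, Mlana and Tyr, the receptor and ligand genes Kit and Kitl, and the receptor and ligand genes Ednrb and Edn3. Polyadenylated RNA was sequenced from 10 libraries, each holding GFP-positive cells sorted from 1 mouse embryo at embryonic day 10.5. The p53_activated embryos (5 libraries) had the genotype Wnt1Cre;R26mTmG;p53LSL-25,26/+, in which Cre recombinase frees 1 engineered Trp53 copy to make stabilised p53, with a normal copy on the other chromosome. The littermate control embryos (5 libraries) had the genotype Wnt1Cre;R26mTmG;p53+/+, so both groups carried the same Cre driver and the R26mTmG reporter, which turns on membrane GFP where Cre has acted. The strain was mixed 129/Sv-C57BL/6. Wnt1-Cre acts in the dorsal neural tube as well as in the neural crest that leaves it, so the sorted cells were not melanoblasts alone. The sort was meant to leave out cells outside the Wnt1-Cre lineage, including those that make ligands. The comparison asks how activated p53 changes gene expression in neural crest cells.

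Melanoblasts leave the neural crest and migrate under the skin. Mitf is the transcription factor that sets their fate and, in pigment cells, switches on Dct, Pmel, Mlana and Tyr. Kit, a receptor tyrosine kinase, and Ednrb, a G protein-coupled receptor, receive the survival, growth and migration signals Kitl and Edn3, and loss of either pathway in mice leaves coat areas without pigment. Dct and Pmel are early markers of the lineage, whereas Tyr, the rate-limiting enzyme of melanin synthesis, comes on later.

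Levels are given as CPM, the counts of a gene relative to all counts of its library, scaled between libraries by the TMM method, and differences as log2 fold changes of p53_activated over control ± SE from edgeR. A gene is said to rise or fall only where its p, adjusted by the Benjamini-Hochberg method over all 14528 genes, was under 0.05. Library totals were 14644162 to 28379562 counts in p53_activated embryos and 12368058 to 23514828 counts in control embryos. Cdkn1a, the best known p53 target, lay between 90.8 and 117 CPM in p53_activated libraries and between 5.82 and 9.57 CPM in control libraries. The neural crest transcription factor gene Sox10, which marks the cells that melanoblasts come from, averaged 18.6 ± 4.31 CPM in p53_activated and 20.03 ± 3.64 CPM in control libraries (SD, n = 5 each), so the sorted cells held crest RNA in both groups. Control replicates 1 and 2 stood apart from the other 8 libraries. Their ratio of the embryonic globin transcripts Hbb-y and Hbb-bh1 was 4.97 and 2.69, against 1.83 to 2.08 in p53_activated libraries, and lay between 1.59 and 1.95 in control replicates 3 to 5. Their Lin28a, an early developmental gene, was at 2.96 and 6.21 CPM, against 10.8 to 24.8 CPM in p53_activated libraries. Some results are therefore also given without these libraries.

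Promoter sequence was available for 7 of the 9 genes, in 10 windows of 250 bases before a RefSeq transcription start (GRCm38.p6). Mitf binds an E-box of the form CATGTG, and the longer form GTCATGTG, which contains CATGTG, is the core of the M-box of pigment gene promoters. TGACGTCA is the cAMP response element, a known entry point for the signal that turns on Mitf in pigment cells. The windows below are those that held a match on either strand. They are shown because Dct is the gene with the largest difference, Tyr is its later partner in the same pathway and Mitf encodes the factor that binds their E-boxes. They are written 5′ to 3′ on the gene's strand, and capitals mark the matched bases.

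Dct, chr14:118052247-118052496, minus strand: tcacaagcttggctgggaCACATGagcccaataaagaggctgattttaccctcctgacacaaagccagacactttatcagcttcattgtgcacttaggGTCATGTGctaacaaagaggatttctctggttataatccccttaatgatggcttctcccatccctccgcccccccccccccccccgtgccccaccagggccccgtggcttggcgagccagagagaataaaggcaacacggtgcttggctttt
Tyr, chr7:87493513-87493762, minus strand: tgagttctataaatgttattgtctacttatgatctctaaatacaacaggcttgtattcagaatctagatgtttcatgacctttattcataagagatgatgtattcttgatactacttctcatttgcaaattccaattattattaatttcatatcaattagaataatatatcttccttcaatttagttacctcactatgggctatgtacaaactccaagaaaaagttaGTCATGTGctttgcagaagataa
Mitf, internal RefSeq start, chr6:97991533-97991782, plus strand: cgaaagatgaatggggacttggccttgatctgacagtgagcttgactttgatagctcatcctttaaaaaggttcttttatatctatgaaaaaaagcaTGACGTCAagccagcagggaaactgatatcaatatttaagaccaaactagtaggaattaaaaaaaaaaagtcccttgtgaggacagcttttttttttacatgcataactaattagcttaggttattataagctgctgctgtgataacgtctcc

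The Dct window held CACATG, the reverse complement of CATGTG, starting at -232 from the transcription start, and GTCATGTG starting at -152. The Tyr window held GTCATGTG starting at -23. The Mitf window lies inside the gene, upstream of an internal start, and held TGACGTCA, which reads the same on both strands, starting at -153. Over all 32851 windows of the same length, 12.3% held CATGTG, 0.916% held GTCATGTG and 1.55% held TGACGTCA. The windows of Kit, Kitl, Ednrb and Edn3 held none of these letters. A match describes the sequence and is not evidence of binding in these cells.

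Mitf RNA was scarce in both groups. Its levels in p53_activated replicates 1 to 5 were 0.964, 0.263, 0.196, 0.955 and 0.486 CPM, against 1.93, 1.02, 1.25, 1.08 and 0.656 CPM in control replicates 1 to 5. The groups overlapped, with all 5 p53_activated libraries below the control median and 3 of them below the lowest control library. The means were 0.573 ± 0.369 CPM in p53_activated and 1.19 ± 0.469 CPM in control libraries (SD, n = 5 each). The log2 fold change was -1.03 ± 0.52 with an edgeR adjusted p of 0.258, which did not pass. Only 58 counts in p53_activated and 103 counts in control libraries stood behind it, so the precision was low. The gene (chr6:97807052-98021349, plus strand) has several transcription starts, and the counts do not separate them.

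Dct and Pmel fell, with no overlap between the groups. Dct encodes dopachrome tautomerase, an enzyme of eumelanin synthesis, at chr14:118012790-118052244 on the minus strand. Its levels were 0.206, 0.368, 0.262, 2.04 and 1.04 CPM in p53_activated replicates 1 to 5, against 11.2, 14.4, 5.15, 4.47 and 4.81 CPM in control replicates 1 to 5. The highest p53_activated library, replicate 4, was below the lowest control library, and the highest control libraries were replicates 1 and 2. The means were 0.784 ± 0.779 CPM in p53_activated and 8.00 ± 4.53 CPM in control libraries (SD, n = 5 each). The log2 fold change was -3.24 ± 0.59 (edgeR adjusted p = 0.00549), so Dct was 9.45-fold lower in p53_activated embryos. In bulk samples such as these, fewer cells of a type and less RNA per cell cannot be told apart.

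The Dct counts were few in the p53_activated group, at 3, 7, 4, 62 and 15, against 197, 183, 124, 70 and 66 in control replicates 1 to 5. Replicate 4, the deepest library, thus held 62 of the 91 p53_activated counts, and without it the log2 fold change was -4.08 ± 0.54 (edgeR adjusted p = 0.000433). Without control replicates 1 and 2 the difference was smaller, at -2.53 ± 0.58 (edgeR adjusted p = 0.0256). Dct stayed past the threshold under all 20 other settings tried, with log2 fold changes from -4.08 to -2.53.

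Pmel encodes the melanosome protein whose fibrils carry melanin, at chr10:128704195-128720238 on the plus strand. It had 3.65, 4.31, 4.65, 9.81 and 7.91 CPM in p53_activated replicates 1 to 5, against 36.2, 27.8, 14.3, 15.5 and 16.8 CPM in control replicates 1 to 5. As with Dct, p53_activated replicates 4 and 5 were the highest of their group and control replicates 1 and 2 the highest of theirs. The means were 6.06 ± 2.66 CPM in p53_activated and 22.1 ± 9.56 CPM in control libraries (SD, n = 5 each). Its log2 fold change was -1.85 ± 0.33 (edgeR adjusted p = 0.00517), a 3.60-fold lower level. Without control replicates 1 and 2 it was -1.34 ± 0.28 (edgeR adjusted p = 0.0149). Of its exon length, 6.06% is shared with the neighbours Cdk2 and Dgka, and reads there could not be separated between these genes.

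**Figure D1:**
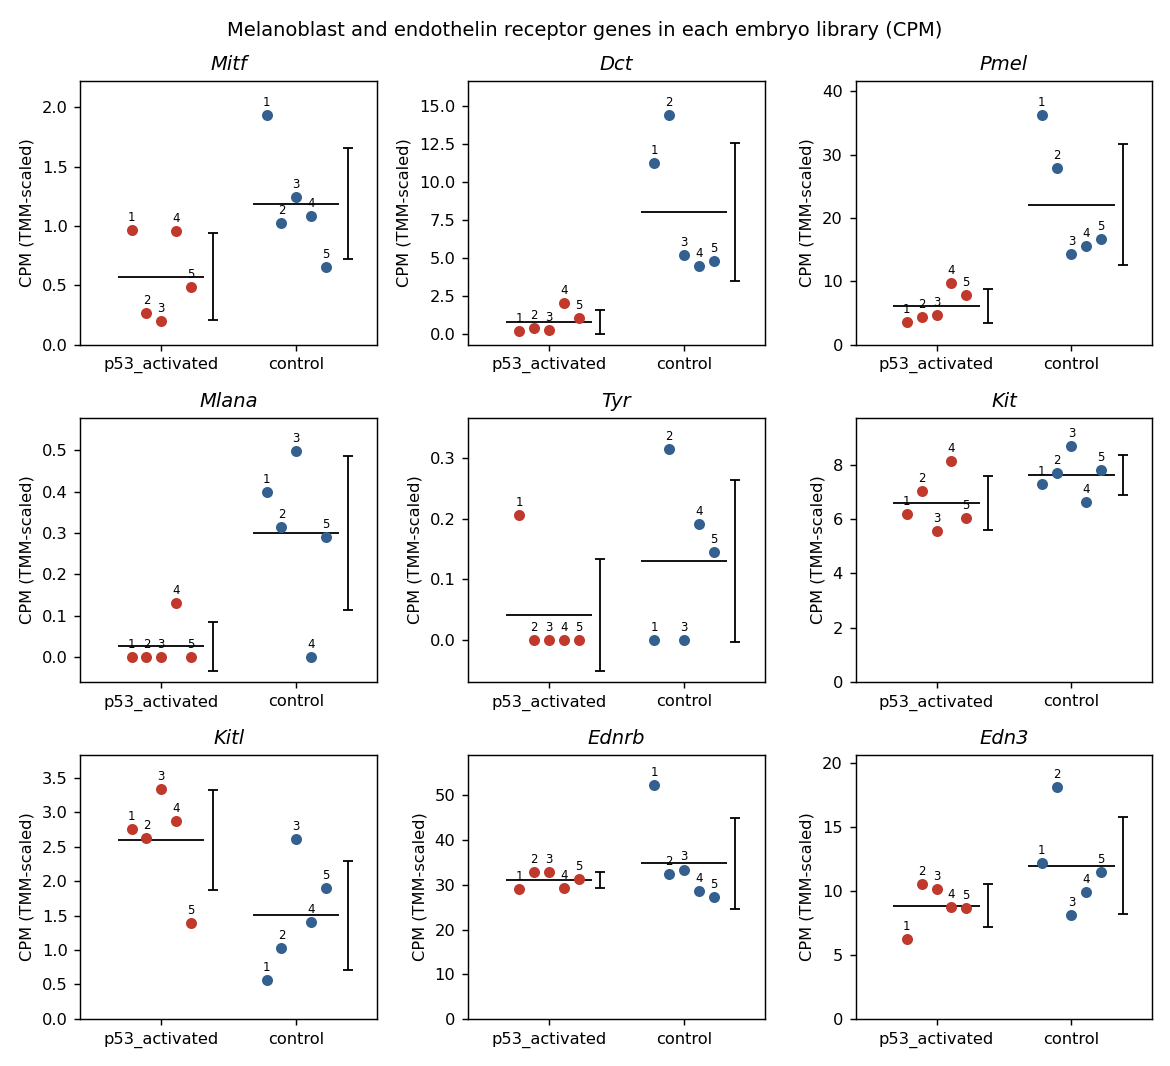
TMM-scaled CPM of each of the 9 genes (vertical axes, starting at or just below 0 and scaled per gene) in p53_activated and control libraries; points are embryos labelled by replicate number, lines the group means and bars the SD (n = 5 each). Dct and Pmel are the genes whose groups do not overlap, with p53_activated libraries at no more than 2.04 CPM for Dct and 9.81 CPM for Pmel, below control libraries of at least 4.47 and 14.3 CPM.

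Mlana and Tyr were near the limit of detection and were not part of the test over all genes. Mlana, which encodes the melanosome protein MART-1, had 0, 0, 0, 0.132 and 0 CPM in p53_activated replicates 1 to 5, against 0.398, 0.315, 0.498, 0 and 0.291 CPM in control replicates 1 to 5. It was detected in 1 of 5 p53_activated and 4 of 5 control libraries, with 4 and 27 counts in all, and the groups overlapped through the empty control replicate 4. The ratio of its counts, corrected for library size, was 0.133 with a 95% interval of 0.0337 to 0.380, which covers counting error only. The difference of the means was -0.274 CPM, with a two-sided exact permutation p of 0.0476, where the smallest p that 5 against 5 allows is 0.00794. When edgeR was run with no filter on low counts, the Benjamini-Hochberg adjusted p of Mlana over all genes was 0.272, so it did not pass.

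Tyr had 0.206, 0, 0, 0 and 0 CPM in p53_activated replicates 1 to 5, against 0, 0.315, 0, 0.191 and 0.146 CPM in control replicates 1 to 5. It was detected in 1 of 5 p53_activated and 3 of 5 control libraries, with 3 and 9 counts in all. The ratio of counts was 0.298 with a 95% interval of 0.0519 to 1.20 (counting error only), and the two-sided exact permutation p was 0.405. A difference in Tyr was not detectable at this depth. A count of 0 in a library allows up to 3 counts there.

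Kit RNA was present in every library at similar levels. It had 6.19, 7.04, 5.56, 8.13 and 6.04 CPM in p53_activated replicates 1 to 5, against 7.28, 7.71, 8.68, 6.64 and 7.79 CPM in control replicates 1 to 5. Although 3 p53_activated libraries were below the lowest control library, the second highest of all 10 was p53_activated replicate 4. The means were 6.59 ± 1.01 CPM in p53_activated and 7.62 ± 0.75 CPM in control libraries (SD, n = 5 each), with a log2 fold change of -0.20 ± 0.18 (edgeR adjusted p = 0.555).

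Kitl, the ligand of Kit, was the member with a positive difference. It had 2.75, 2.63, 3.34, 2.86 and 1.39 CPM in p53_activated replicates 1 to 5, against 0.569, 1.02, 2.62, 1.40 and 1.89 CPM in control replicates 1 to 5. In 4 of the p53_activated libraries it was above the highest control library, replicate 3, while p53_activated replicate 5 lay below the control median. The log2 fold change of 0.78 ± 0.40 did not pass (edgeR adjusted p = 0.267). The lowest values were in control replicates 1 and 2, and without them it was 0.39 ± 0.38 (edgeR adjusted p = 0.628).

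Ednrb, the receptor for endothelin-3, was abundant and even in the p53_activated embryos. It had 29.0, 32.9, 32.8, 29.3 and 31.3 CPM in p53_activated replicates 1 to 5, against 52.3, 32.5, 33.4, 28.6 and 27.2 CPM in control replicates 1 to 5. The p53_activated range lay inside the control range, and control replicate 1 stood far above the other 9 libraries. The means were 31.1 ± 1.83 CPM in p53_activated and 34.8 ± 10.1 CPM in control libraries (SD, n = 5 each), with a log2 fold change of -0.17 ± 0.16 (edgeR adjusted p = 0.592). Without control replicate 1 the sign turned, at 0.03 ± 0.11 (edgeR adjusted p = 0.920). Enteric and glial crest cells also express Ednrb, so its level is not one of melanoblasts alone.

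Edn3, the ligand, had 6.26, 10.6, 10.1, 8.76 and 8.67 CPM in p53_activated replicates 1 to 5, against 12.2, 18.2, 8.14, 9.95 and 11.5 CPM in control replicates 1 to 5. All 5 p53_activated libraries were below the control median and 1 was below the lowest control library, so the groups overlapped. The log2 fold change was -0.43 ± 0.22 (edgeR adjusted p = 0.254). It was -0.15 ± 0.21 without control replicates 1 and 2 (edgeR adjusted p = 0.764). Values for Kitl and Edn3 describe the sorted cells, and what surrounding tissue made was not measured.

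**Figure D2:**
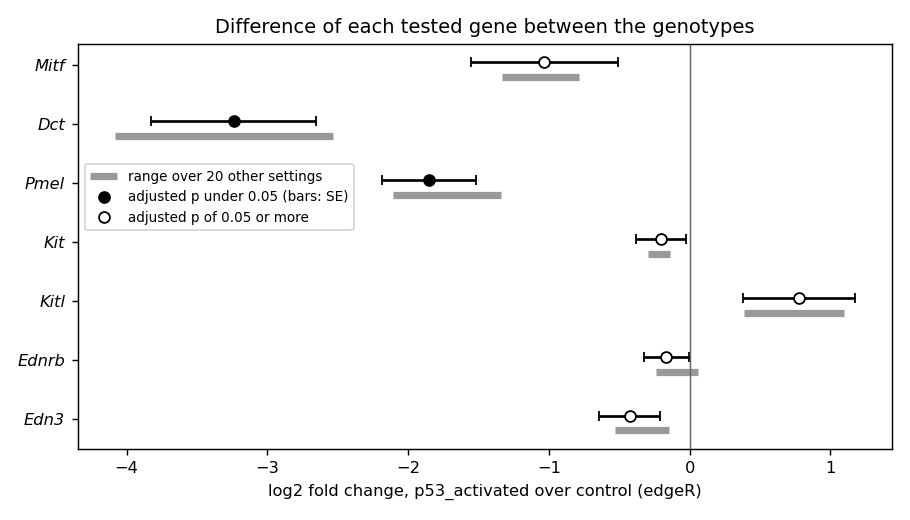
Log2 fold change of p53_activated over control for the 7 tested genes (horizontal axis, edgeR), with SE bars, filled points where the adjusted p was under 0.05, and grey bars for the range over 20 other settings. Dct at -3.24 and Pmel at -1.85 passed, and the grey bar of Ednrb is the one that crosses 0.

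Of the 7 genes tested, 2 fell and 5 did not pass, where 2.74% of all 14528 tested genes fell. None of the 7 rose, where 4.49% of all tested genes did. Neither edgeR, DESeq2 nor limma-voom called any of the 7 higher, and 0 of them had an unadjusted edgeR p under 0.05 with a positive sign. The same 2 genes were those with no overlap between the groups, where 3.52% of all tested genes had all p53_activated libraries below all control libraries. The log2 fold changes were negative for 6 of the 7 and had a median of -0.43, against -0.01 for all tested genes. Dct and Mitf passed the filter on low counts through the control libraries, reaching it in 5 of those and in 2 p53_activated libraries, so the 7 are not a neutral sample of the 9.

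Set against Sox10 in the same library, Dct and Pmel still separated the groups. Dct ran from 1.04 to 8.28 counts per 100 Sox10 counts in p53_activated libraries, against 19.8 to 82.1 in control libraries. Pmel ran from 18.4 to 50.7 per 100 Sox10 counts in p53_activated libraries, against 54.9 to 216 in control libraries. Thus both were lower relative to crest RNA as Sox10 measures it, whereas the groups overlapped on this scale for Mitf, Kit and Ednrb. Mitf ran from 1.00 to 4.86 in p53_activated and 3.28 to 11.5 in control libraries, Kit from 28.4 to 52.1 in p53_activated and 33.3 to 43.9 in control libraries, and Ednrb from 119 to 244 in p53_activated and 128 to 312 in control libraries. Sox10 itself had a log2 fold change of -0.10 ± 0.17 (edgeR adjusted p = 0.777).

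**Figure D3:**
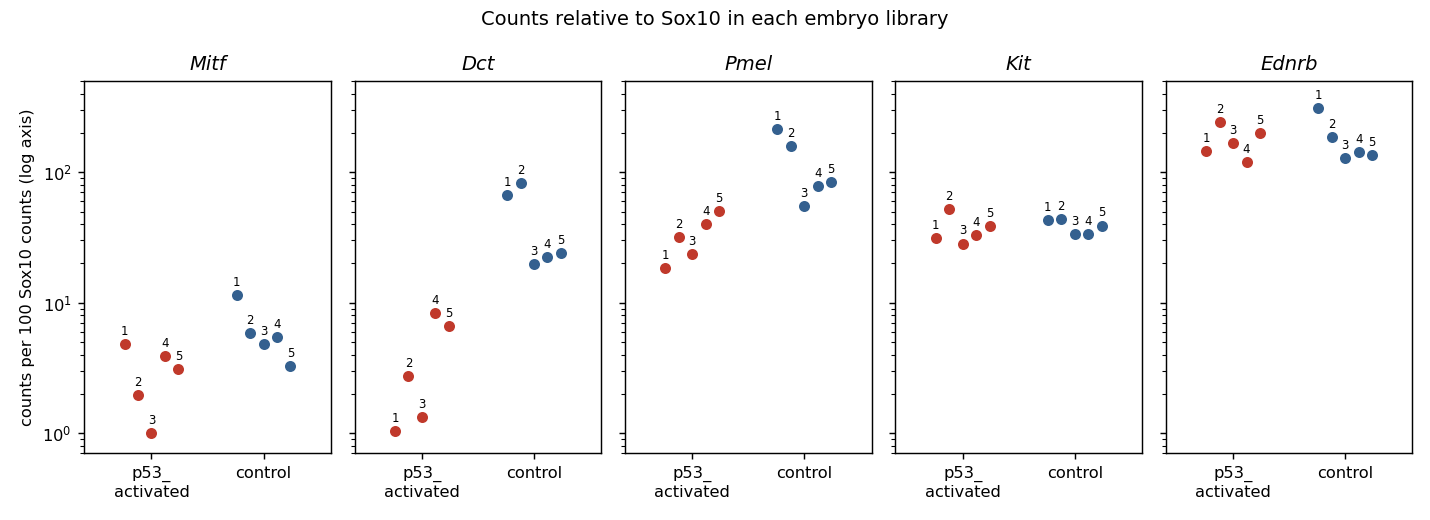
Counts of Mitf, Dct, Pmel, Kit and Ednrb per 100 Sox10 counts (log axis shared by the panels) in p53_activated and control libraries; points are embryos labelled by replicate number. Dct and Pmel separate the groups, at no more than 8.28 and 50.7 in p53_activated libraries and at least 19.8 and 54.9 in control libraries, and the other 3 genes overlap.

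The order of the levels differed between the groups once levels were divided by exon length. In p53_activated libraries Ednrb came first at 7.28 ± 0.43 CPM per kilobase (SD, n = 5), above Pmel at 2.65 ± 1.16 with no overlap. In control libraries Pmel was first at 9.65 ± 4.17 CPM per kilobase and Ednrb next at 8.16 ± 2.37 (SD, n = 5), a pair whose ranges overlapped, with Pmel the higher in 4 of 5 libraries. Edn3 was next in both groups, and in p53_activated libraries its range overlapped that of Pmel, which was the higher in 3 of 5. Its level was 2.16 ± 0.41 CPM per kilobase in p53_activated and 2.92 ± 0.92 in control libraries. In p53_activated libraries Dct was at rank 6, at 0.133 ± 0.132 CPM per kilobase, below Kit at 0.740 ± 0.114 and Kitl at 0.439 ± 0.123, and its range overlapped those of Kitl and Mitf. In control libraries Dct was at rank 4, at 1.36 ± 0.768 CPM per kilobase, overlapping its neighbours Edn3 and Kit. Kit followed there at 0.855 ± 0.0841, then Mlana at 0.284 ± 0.177 and Kitl at 0.254 ± 0.134 CPM per kilobase, which overlapped each other. Mitf was at rank 7 in p53_activated libraries, at 0.0924 ± 0.0595 CPM per kilobase, and at rank 8 in control libraries, at 0.192 ± 0.0757. Tyr was last in both, at 0.00581 ± 0.0130 CPM per kilobase in p53_activated and 0.0183 ± 0.0189 in control libraries.

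Within groups, Dct and Pmel varied together. After each group's mean was removed, their log2 CPM had a Pearson r of 0.93 over the 10 libraries, the highest of the 21 pairs among the tested members. Genes read from the same library share its depth and embryo, and r is given as a description. The next pair in size was Pmel and Kitl, with an r of -0.71. Mitf had an r of 0.42 with Dct and 0.41 with Pmel. Among 11975 other genes with a mean log2 CPM over 1, those most like Dct on this measure were Krba1 (r = 0.974), Akap9 (r = 0.969) and Lrp1 (r = 0.967), and those most like Pmel were Tnrc18 (r = 0.970), Fbn2 (r = 0.965) and Cldn11 (r = 0.964). None of these 6 genes passed the test between genotypes. Those most like the other tested members were Nipa1 for Mitf (r = 0.935), Pam16 for Kit (r = 0.935), Lrrc40 for Kitl (r = 0.958), Gm5586 for Ednrb (r = 0.972) and Tmem59l for Edn3 (r = 0.940). Of these 5, Tmem59l fell, with a log2 fold change of -0.98 ± 0.16 (edgeR adjusted p = 0.00121).

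Other genes of the same pathways were read from 4 lists with 55 genes, 45 of them tested. In edgeR 3 of the 45 fell, where 2.74% of all tested genes fell, and 1 rose, where 4.49% of all tested genes rose. Their median log2 fold change was 0.06, against -0.01 for all tested genes. Among 12 regulators of the melanoblast, 11 were tested and 2 fell, where 2.74% of all tested genes fell. None of the 11 rose in edgeR, DESeq2 or limma-voom. With an unadjusted edgeR p under 0.05, 0 were positive and 3 negative. Beside the 2 that fell this was Zeb2, at -0.36 ± 0.14, which did not pass (edgeR adjusted p = 0.126). All its p53_activated libraries were below all its control libraries, as for 3.52% of all tested genes. Snai2, a transcription factor of migrating crest cells whose loss gives white spotting in mice, averaged 8.83 ± 1.69 CPM in p53_activated and 17.0 ± 7.83 CPM in control libraries (SD, n = 5 each), with a log2 fold change of -0.94 ± 0.26 (edgeR adjusted p = 0.0416). Lef1, the Wnt pathway transcription factor that acts with Mitf at the Dct promoter, averaged 17.7 ± 1.26 CPM in p53_activated and 28.5 ± 9.59 CPM in control libraries, with -0.68 ± 0.18 (edgeR adjusted p = 0.0341). Without control replicates 1 and 2 neither passed, with -0.41 ± 0.19 for Snai2 (edgeR adjusted p = 0.269) and -0.37 ± 0.14 for Lef1 (edgeR adjusted p = 0.152). Lef1 shares 13.7% of its exon length with the predicted gene Gm43352. Pax3, which with Sox10 switches on Mitf, had a log2 fold change of 0.21 ± 0.14 (edgeR adjusted p = 0.437).

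Both calls lay close to the threshold. Leaving out control replicate 1 or 2 or p53_activated replicate 1, 2, 3 or 5 put Snai2 short of it, with edgeR adjusted p-values up to 0.102, while its log2 fold change over all 10 such fits ran from -1.07 to -0.66. The same libraries, and control replicate 5, did so for Lef1, with edgeR adjusted p-values up to 0.0799 and log2 fold changes from -0.77 to -0.46. Under limma-voom neither passed, at -0.79 ± 0.27 for Snai2 (adjusted p = 0.102) and -0.60 ± 0.19 for Lef1 (adjusted p = 0.0801). With the replicate number as a block they had -0.86 ± 0.23 (edgeR adjusted p = 0.0548) and -0.63 ± 0.18 (edgeR adjusted p = 0.0588), and with total count scaling Snai2 had -0.95 ± 0.27 (edgeR adjusted p = 0.0522).

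Of 21 other pigment and melanosome genes, 14 were tested and the median log2 fold change was 0.08. In edgeR 1 fell, where 2.74% of all tested genes fell, and 0 rose, where 4.49% of all tested genes rose. The sign was positive for 9 of the 14 and negative for 5. DESeq2 and limma-voom also called 0 higher. With an unadjusted edgeR p under 0.05, 3 genes were positive and 2 negative. The 3 were Lyst, at 1.31 ± 0.51 (edgeR adjusted p = 0.139), Trpm1, at 0.57 ± 0.23 (edgeR adjusted p = 0.154), and Myo5a, at 0.34 ± 0.12 (edgeR adjusted p = 0.0940). Trpm1 passed without p53_activated replicate 4, and Lyst and Myo5a passed without p53_activated replicate 1. The 2 negative genes were Mreg and Rab38. Rab38 was at -0.78 ± 0.30 (edgeR adjusted p = 0.135), with all 5 p53_activated libraries below the control median, and passed as lower without control replicate 1. Mreg, which encodes the melanosome transport factor melanoregulin, averaged 6.30 ± 1.49 CPM in p53_activated and 12.8 ± 5.34 CPM in control libraries (SD, n = 5 each), which gave -1.02 ± 0.27 on the log2 scale (edgeR adjusted p = 0.0345). Leaving out control replicate 3, 4 or 5 or p53_activated replicate 1, 2, 4 or 5 put it short of the threshold, with edgeR adjusted p-values up to 0.0931, while the log2 fold change over all 10 such fits ran from -1.19 to -0.81. It was -0.92 ± 0.29 under limma-voom (adjusted p = 0.0783) and -0.95 ± 0.26 with the replicate block (edgeR adjusted p = 0.0585). Without control replicates 1 and 2 Mreg passed, at -1.35 ± 0.22 (edgeR adjusted p = 0.00212). The other 7 genes of this list were too scarce to test. The melanocyte enzyme gene Tyrp1 had 0 counts in all 10 libraries. Slc45a2 had 8 counts in p53_activated and 36 in control libraries, Mlph had 2 in p53_activated and 42 in control libraries, and Gpnmb had 26 in p53_activated and 56 in control libraries. Oca2 and Gpr143 each had 0 counts in p53_activated and 7 in control libraries. Mc1r, the melanocortin receptor gene, had 88 counts in p53_activated and 40 in control libraries.

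Of 7 other endothelin genes, 5 were tested and 0 passed in edgeR, DESeq2 or limma-voom, and 2 had an unadjusted edgeR p under 0.05. Those were Ece1, which encodes the converting enzyme that activates endothelins, with a log2 fold change of 0.29 ± 0.13 (edgeR adjusted p = 0.201), and Ecel1, with -1.16 ± 0.51 (edgeR adjusted p = 0.196). The endothelin-1 receptor gene Ednra had 0.04 ± 0.32 (edgeR adjusted p = 0.958). All 15 genes of Kit signalling were tested, and in edgeR 1 rose, where 4.49% of all tested genes rose, a share near that of the list. Nf1, the Ras inhibitor neurofibromin, averaged 20.7 ± 5.98 CPM in p53_activated and 12.5 ± 1.76 CPM in control libraries (SD, n = 5 each), with a log2 fold change of 0.73 ± 0.19 (edgeR adjusted p = 0.0271). Leaving out control replicate 3 or 5 or p53_activated replicate 4 or 5 put it short of the threshold, with edgeR adjusted p-values up to 0.0772 and log2 fold changes over all 10 such fits from 0.58 to 0.84. Cbl, the ubiquitin ligase that turns Kit over, had 0.85 ± 0.25 and did not pass (edgeR adjusted p = 0.0523). It passed in DESeq2 (adjusted p = 0.0103) and in edgeR without robust dispersions (adjusted p = 0.0499), and limma-voom gave an adjusted p of 0.0812. With an unadjusted edgeR p under 0.05, 2 genes of Kit signalling were positive, Nf1 and Cbl, and 2 were negative. The negative genes were Adamts20, at -0.78 ± 0.29 (edgeR adjusted p = 0.117), and Grb2, at -0.26 ± 0.11 (edgeR adjusted p = 0.162).

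Markers of other cells that could share these genes were read beside them. The summed level of 7 Schwann cell precursor markers, cells that also give rise to melanoblasts, was 90.5 to 128 CPM in p53_activated and 135 to 157 CPM in control libraries. Fabp7, a glial fatty acid binding protein, carried that gap, and the other 6 markers summed to 37.9 to 70.6 CPM in p53_activated and 43.1 to 54.9 CPM in control libraries, which overlapped. Of the 5 tested, Fabp7 fell in edgeR (log2 fold change -0.78 ± 0.16, adjusted p = 0.00767), where 2.74% of all tested genes fell. Without control replicates 1 and 2 Fabp7 had -0.81 ± 0.20 and did not pass (edgeR adjusted p = 0.0511).

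The summed level of 6 enteric crest markers was 37.3 to 48.9 CPM in p53_activated and 65.2 to 78.0 CPM in control libraries. Without Tlx2, a transcription factor gene of enteric neurons, the other 5 summed to 25.6 to 35.4 CPM in p53_activated and 32.9 to 49.0 CPM in control libraries, which overlapped. Of the 5 tested, Tlx2 fell in edgeR (log2 fold change -1.06 ± 0.17, adjusted p = 0.00130), where 2.74% of all tested genes fell. Hoxb5 had -0.57 ± 0.17 and did not pass in edgeR (adjusted p = 0.0550), while DESeq2 called it lower. All 5 tested had negative log2 fold changes, with a median of -0.57, and 3 had an unadjusted edgeR p under 0.05. Beside Tlx2 and Hoxb5 that was Ret, at -0.65 ± 0.25 (edgeR adjusted p = 0.141). The part of these cells in the Dct and Pmel results was not tested.

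Retinal pigment epithelium, blood and blood vessel lining cells are outside the Wnt1-Cre lineage, and a sort on its GFP is meant to leave them out. Some of their markers still had counts in every library. The haematopoietic marker Gata1 averaged 1.40 CPM in p53_activated and 2.28 CPM in control libraries. Cldn5, the highest of the 7 endothelial markers, averaged 19.6 CPM in p53_activated and 20.3 CPM in control libraries. The others were far lower, with means from 0.578 CPM (Cdh5) to 3.95 CPM (Emcn) in p53_activated libraries. In control libraries their means ran from 0.351 CPM (Cdh5) to 3.28 CPM (Emcn). Cdh5 had counts in 4 of 5 p53_activated and 3 of 5 control libraries. How many such cells the sorted samples held was not tested. The retinal pigment epithelium, which makes Dct, Pmel, Tyr and Mitf without coming from the neural crest, has Rpe65 and Rgr among its defining genes, and both had 0 counts in all 10 libraries. The 9 markers of this epithelium summed to 40.6 to 62.9 CPM in p53_activated and 33.1 to 94.3 CPM in control libraries. Most of that was Ttr, with means of 29.2 CPM in p53_activated and 43.1 CPM in control libraries, and Otx2, with 17.7 and 13.6 CPM. The sum thus says little about the other markers. None of the 4 tested passed in edgeR, DESeq2 or limma-voom, with 1, Otx2, at an unadjusted edgeR p under 0.05. The mast cell markers Cpa3 and Tpsb2 were at 0 in all 10 libraries, and whether they are on at this stage was not tested either. The 10 haematopoietic and mast cell markers summed to 23.5 to 50.2 CPM in p53_activated and 31.1 to 74.7 CPM in control libraries, with 0 of 6 tested passing in edgeR or limma-voom, 2 at an unadjusted edgeR p under 0.05 (Gata2 and Cd34) and 1, Gata2, passing in DESeq2. The 7 endothelial markers summed to 24.5 to 44.1 CPM in p53_activated and 13.8 to 52.3 CPM in control libraries, with 0 of 6 passing in any of the 3 tools and 0 at an unadjusted edgeR p under 0.05. The 7 epithelial markers summed to 37.97 to 112 CPM in p53_activated and 70.5 to 168 CPM in control libraries, all 7 had negative log2 fold changes with a median of -0.84, and 0 passed in any of the 3 tools, with 3 at an unadjusted edgeR p under 0.05.

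**Figure D4:**
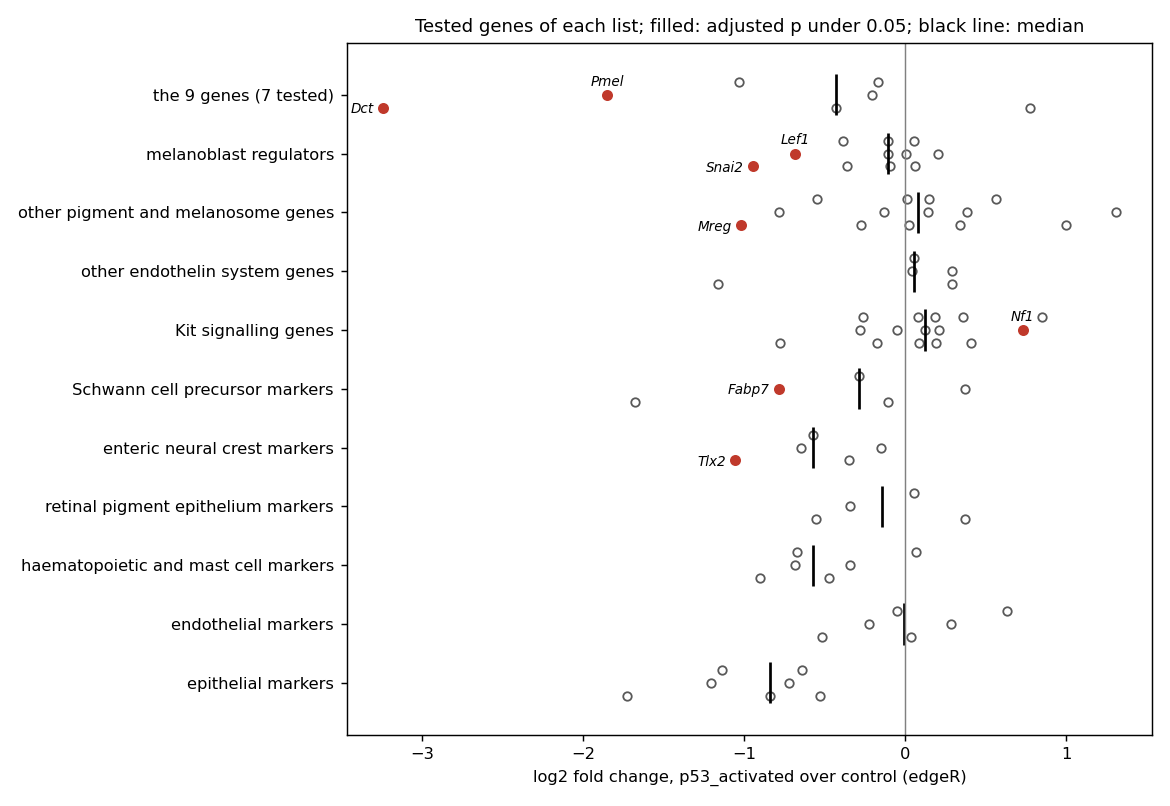
Log2 fold change of p53_activated over control (horizontal axis, edgeR) for each tested gene of the 9 genes, of 4 pathway lists and of 6 marker lists; filled and named points had an adjusted p under 0.05, and black lines are list medians. Dct and Pmel lie further to the left than any gene of the other lists, the lowest of which is at -1.73.

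In the authors' deposited table, whose sign is the same (Cdkn1a 3.51), Dct had a log2 fold change of -1.33 ± 0.29 (SE) with an adjusted p of 0.000211, and Pmel one of -1.47 ± 0.24 with an adjusted p of 4.76e-08. The authors' deposited table gave adjusted p-values of 0.260 for Mitf, 0.599 for Kit, 0.248 for Kitl, 0.630 for Ednrb and 0.243 for Edn3, and none for Mlana and Tyr. Both sources put Dct and Pmel past 0.05 and the other 5 tested members short of it. The log2 fold changes of scarce genes were smaller in the authors' deposited table, with -0.12 for Tyr, which had -1.54 ± 1.77 in edgeR without a filter (adjusted p = 0.665). DESeq2 run here on the counts gave -3.30 ± 0.52 for Dct and -1.86 ± 0.30 for Pmel, the same order as edgeR, so the sizes in the authors' deposited table are not compared between genes. The authors' deposited table had no standard error above 0.293 for any gene.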

How the data were processed

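Unnormalized counts for Ensembl genes were deposited for 10 libraries, each from 1 embryo, so replicates are separate embryos. GRCm38, HTSeq 0.6.1, DESeq2 1.14.1, HISAT2 2.0.4 and SAMtools 1.3.1 are named in the submitters' processing notes. The annotation release and the strand setting were not given in the sources used here, and reads of overlapping or antisense genes could not be separated. Per the file headers, the authors' deposited table holds a mean normalized count (signal), log2 fold changes and their standard errors, the Wald statistic (a score) and p-values.

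The counts were filtered with filterByExpr (minimum count 10, minimum total 15), scaled by TMM and tested with the robust quasi-likelihood F-test of edgeR 4.0.16 in R 4.3.3, without covariates, and p-values were adjusted by the Benjamini-Hochberg method over 14528 genes. SE is the log2 fold change over the square root of F. Log2 CPM used a prior count of 2. Genes below the filter were compared by a two-sided exact permutation test. Overlaps and exon lengths came from GENCODE M21 (99.3% of identifiers found). The steps were tested on simulated data. Alternatives were other scaling, filters and tools (DESeq2 1.42.0, limma 3.58.1), a replicate block, and leaving out libraries.

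The members and lists were chosen with earlier results of these data known. Named were all 9 members, the called genes of each list with those needed to show that a gene did not pass, the scarce pigment genes, and the genes with the highest r to each member among those with a mean log2 CPM over 1. A few marker genes of these lists are not reported here and were left out of their counts and sums. Marker sums without Fabp7 or Tlx2 were added after seeing the data.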

Additional observations from a re-analysis of the deposited data

Results flagged for a closer look

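In 3 of 18 groups of 5 libraries, 1 value lay far from the other 4, with a gap over the group's range above Dixon's limit of 0.71; chance gives about 1 in 20 groups. Ednrb was highest in control replicate 1, at 52.3 CPM, with a gap of 0.753 of the range. Mlana was highest in p53_activated replicate 4, at 0.132 CPM, and Tyr in p53_activated replicate 1, at 0.206 CPM; in both the other 4 libraries of the group were at 0, so a few reads make the gap.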

How the results depend on the processing

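Dct and Pmel kept their direction and passed under all 20 other settings, Mitf, Kit, Kitl and Edn3 kept theirs without passing, and members called stayed at 2 lower and 0 higher. Ednrb turned positive without control replicate 1 and without control replicates 1 and 2 (0.0598), and ran from -0.2406 to 0.02855 leaving out 1 library; the cause was not tested. The Mlana difference ran from -0.35 to -0.22 CPM when single libraries were left out, and was -0.35 without control replicate 4, where Mlana has no count. Calls over all genes were 1050 (398 lower), against 1676 (699 lower) with DESeq2, 656 (194 lower) without control replicates 1 and 2, and 636 to 1025 (192 to 433 lower, 430 to 707 higher) leaving out 1 library. Of the 4 pathway lists, 3 genes fell, against 0 with limma-voom, 0 with the replicate block, 1 without control replicates 1 and 2, and 0 to 2 leaving out 1 library; 1 rose, against 2 with DESeq2, 2 in the non-robust fit, and 0 to 4 leaving out 1 library. Upper quartile scaling put 51.7% of calls higher, against 62.1%.

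Same-numbered libraries did not deviate together (r from -0.05 to 0.11, 1 of 5 over 0.1, best with their own number in 1 of 5 in each group). With the replicate block there were 804 calls, Dct had -3.44 (edgeR adjusted p = 0.0281) and Pmel -1.84 (edgeR adjusted p = 0.0322), and Snai2, Lef1 and Mreg no longer passed. Depth limits Mlana, Tyr and Mitf most.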
